A study of Mus with 3 samples.

Results

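Type I interferon-stimulated antiviral genes were followed in the mouse hippocampus through 9 genes, Ifi27l2a, Bst2, Oas1a, Ifit1, Ifit3, Isg15, Irf7, Usp18 and Ifitm3, of 23693 genes named on the array. They were chosen by name with their own differences between these 3 arrays already known, so every count over them is a description and supports nothing. The array carried 11 probes for them at 20 spots, and 6 of the 9 genes had 1 probe at 1 spot. The RNA came from male Slc:ddY mice, an outbred stock, aged 6 weeks, in 3 groups of 10 animals. ASO mice received shochu oil, an oily fraction from a distilled spirit, by mouth at 2000 mg/kg/day for 15 days and 10 nmol of the amyloid peptide Aβ25-35 in 5 µL into the cerebral ventricles on day 8. ACO mice received distilled water by mouth and the same peptide injection. NCO mice received distilled water by mouth and 5 µL of distilled water in place of the peptide, by a route that the labels do not spell out. All hippocampi were taken after a Y-maze memory test on day 16. RNA of 2 mice formed a set, all 5 sets belonging to one group were combined, and each pool was hybridised to 1 array, with the 3 arrays on the same slide.

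Interferons are secreted proteins that cells release on sensing viral or misplaced nucleic acid. Type I interferons bind the receptor Ifnar1/Ifnar2, whose kinases Jak1 and Tyk2 activate transcription factors that, with Irf9, switch on a broad set of interferon-stimulated genes. In the brain, microglia, astrocytes, neurons and blood vessel cells can all express such genes. The products include proteins that block virus entry or release, proteins that bind viral RNA, the ubiquitin-like modifier Isg15 and regulators of the response itself.

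There was 1 array per group and therefore no replicate, no test and no p-value, and the number of arrays limits the precision of every value. Signals are background-corrected intensities scaled to a common 75th percentile, in arbitrary units, and differences are log2 values of signal plus 50, first named array minus the second. Between 50.9% and 53.7% of 39429 gene probes were well above background per array. The spread between spots is given as the median SD of a difference over probes printed at 10 spots. It lay between 0.112 and 0.126 below a signal of 200, between 0.0886 and 0.101 from 200 to 1000, and between 0.0697 and 0.088 above 1000. It covers spot error only and not differences between animals. The 5 bright spike-in control probes had median differences of 0.34 for ASO minus NCO, 0.48 (range 0.41 to 0.82) for ASO minus ACO and -0.14 for ACO minus NCO, whereas the median of all genes was -0.01, -0.01 and 0.00. All 12 markers of hippocampal neurons were well above background on every array. In pooled tissue RNA, more cells of a type and more RNA per cell cannot be told apart.

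Of the 9 genes, 7 were well above background on all 3 arrays. Ifit1 was well above background on the ASO array alone, and Irf7 on none. Among the 7, 6 had their lowest signal on NCO and their highest on ASO, as did 18.4% of 13193 genes measured on the 3 arrays. The exception was Bst2, which was highest on ACO. The members' values by array appear in the plot of signals.

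**Figure D1:**
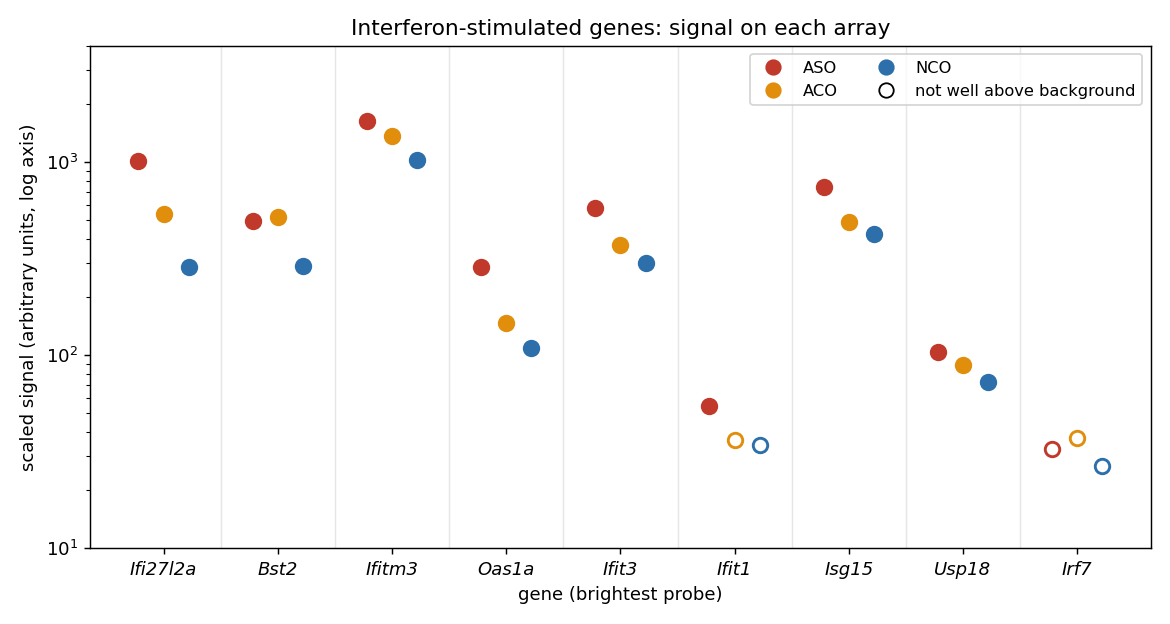
Scaled signal (arbitrary units, log axis) of the brightest probe of each of the 9 genes on the ASO, ACO and NCO arrays, 1 point per array, with open points where the probe was not well above background. Ifi27l2a steps down from 1014 on ASO over 539.6 on ACO to 286.2 on NCO, whereas Bst2 is at 497.4, 517.7 and 291.5.

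The membrane proteins of the response held the gene with the largest differences among the 9. Ifi27l2a (probe A_52_P90363), a small interferon-inducible membrane protein of the Ifi27 family, had a signal of 1014 on ASO, 539.6 on ACO and 286.2 on NCO. It was higher on ASO than on NCO by 1.66, a 3.16-fold difference, higher on ASO than on ACO by 0.85 and higher on ACO than on NCO by 0.81. The arrays were thus separated by steps of similar size, each several times the spot SD. Ranked from the highest difference, Ifi27l2a was number 4 of 13460 genes for ASO against NCO, number 53 of 13571 for ASO against ACO and number 7 of 13317 for ACO against NCO.

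Bst2 (A_51_P169693), also called tetherin, holds budding enveloped viruses at the cell surface. Its signal was 497.4 on ASO, 517.7 on ACO and 291.5 on NCO. Both peptide-injected pools were therefore well above the control pool and close to each other. The differences were 0.68 for ASO minus NCO, -0.05 for ASO minus ACO and 0.73 for ACO minus NCO, number 11 of 13317 genes in the last. ASO minus ACO was 0.07 after correction by the surrounding spots and -0.14 in the authors' deposited table, beside a spot SD of 0.094, so its sign was not settled.

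Ifitm3 (A_51_P128876), which blocks the fusion of viruses with endosome membranes, was printed at 10 spots and so has the best technical support. Its mean signal was 1641 ± 203.5 on ASO, 1360 ± 129.2 on ACO and 1032 ± 138.4 on NCO (SD over 10 spots of 1 array). Set spot against the same spot, all 10 were higher on ASO than on ACO and all 10 were higher on ACO than on NCO. ASO minus NCO was 0.65 ± 0.11, ASO minus ACO 0.26 ± 0.11 and ACO minus NCO 0.39 ± 0.07 (SD, 10 spots). For Ifitm3, unlike Oas1a, Ifit3 and Isg15, the step between ACO and NCO was the larger one. The spots share 1 RNA pool per array and are not replicates of a group.

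**Figure D2:**
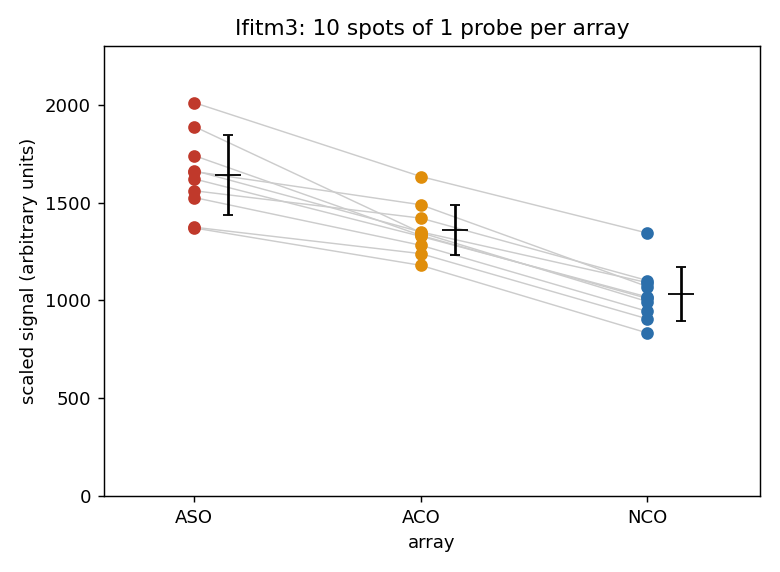
Scaled signal (arbitrary units) of the 10 spots of the Ifitm3 probe on the ASO, ACO and NCO arrays, with grey lines joining the same spot and bars for the mean ± SD over spots. Spots lie between 1370 and 2010 on ASO, 1179 and 1633 on ACO and 833.9 and 1344 on NCO, and each line steps down from ASO to ACO and from ACO to NCO.

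The genes for RNA-binding effectors differed more between ASO and ACO than between ACO and NCO. Oas1a makes short oligoadenylates on double-stranded RNA, which activate the nuclease RNase L. Its brighter probe (A_55_P1998943) had a signal of 286.3 on ASO, 147.6 on ACO and 108.6 on NCO. ASO stood apart from the other arrays, with a difference of 1.08 against NCO (2.12-fold) and 0.77 against ACO, while ACO minus NCO was 0.32. The files list the paralog Oas1g as a second hit of this probe, so its signal cannot be assigned to Oas1a alone. The Oas1g gene's own brightest probe was not well above background on any array. A dimmer probe that lists Oas1a alone (A_55_P1998942) was well above background on ASO alone, at 44.6 against 29.9 on ACO and 29.9 on NCO. With the constant added to each signal, the ASO value was 1.18-fold that of ACO and 1.18-fold that of NCO. Both ratios use the measured dim signal and leave out spot error, so neither is a lower limit.

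Ifit3 and Ifit1 belong to a family of tetratricopeptide repeat proteins, of which Ifit1 binds RNA that lacks the host's cap methylation. Ifit3 (A_51_P359570) had a signal of 581.6 on ASO, 374.4 on ACO and 301.1 on NCO. The ASO array was again the highest by a wide step, with differences of 0.85 against NCO and 0.57 against ACO. ACO minus NCO was 0.27, but 0.10 when the mean of a spot's pixels replaced the median, so the smaller step depended on how the spot was summarised. A separate probe for the near-identical paralog Ifit3b was dimmer and had 111 on ASO, 90.6 on ACO and 90.6 on NCO, with an ASO minus NCO difference of 0.20. The files do not say how far either probe detects the other gene.

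Ifit1 (A_51_P327751) was dim. Its signal was 54.5 on ASO, 36.5 on ACO and 34.2 on NCO, of which the ASO value alone was well above background. On signal plus 50, the ASO value of Ifit1 was 1.21-fold that of ACO and 1.24-fold that of NCO. Both ratios use the measured dim signal and leave out spot error, so they are not lower limits.

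Isg15 and Usp18 form a modifier and its eraser. Isg15 is a ubiquitin-like protein attached to other proteins during the response, and Usp18 removes it and also restrains signalling at the interferon receptor. The brighter Isg15 probe (A_55_P2103698) had a signal of 742.1 on ASO, 490.2 on ACO and 423.4 on NCO. The differences were 0.74 for ASO minus NCO, 0.55 for ASO minus ACO and 0.19 for ACO minus NCO, so most of the distance between ASO and NCO lay between ASO and ACO. The other Isg15 probe (A_66_P128537) was not well above background on any array, at 31.7 on ASO, 15.6 on ACO and 23.6 on NCO, and gives no difference.

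Usp18 (A_55_P2114953) differed least among the 7 measured genes in both comparisons with NCO. Its signal was 104.1 on ASO, 88.7 on ACO and 72.5 on NCO. The order of the arrays was that of Isg15, but the steps of 0.15 for ASO against ACO and 0.18 for ACO against NCO are little more than the spot SDs of 0.112 and 0.113 at such signals. ASO minus NCO was 0.33, number 929 of 13460 genes. In the authors' deposited table, on log2 of value plus 50, Usp18 stood at 0.43 for ASO minus NCO, 0.08 for ASO minus ACO and 0.36 for ACO minus NCO, so the split between the steps depended on the background correction and scaling.

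Irf7 (A_51_P421876), the transcription factor that amplifies the production of interferon-α, was not well above background on any array. Its signal was 32.7 on ASO, 37.5 on ACO and 26.8 on NCO. These values give no order, and no fold is given for them. Their differences enter the medians over all 9 genes, dim probes included. The plot of differences shows the 9 genes side by side.

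**Figure D3:**
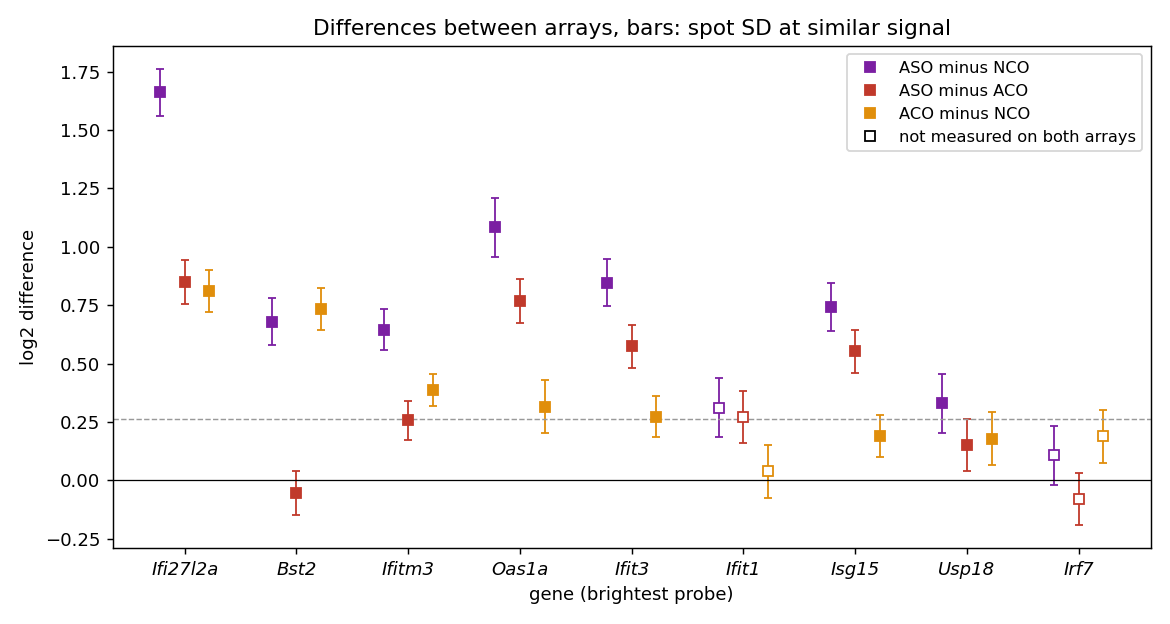
Log2 difference of the brightest probe of each of the 9 genes for ASO minus NCO, ASO minus ACO and ACO minus NCO, with bars of 1 median spot SD at a similar signal, open squares where a probe was not well above background on both arrays and a dashed line at 1.2-fold. Ifi27l2a reaches 1.66 for ASO minus NCO, and Bst2 is the measured gene below 0 for ASO minus ACO, at -0.05.

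The comparison of ASO with NCO set oil-treated, peptide-injected mice against normal controls. All 7 measured genes were higher on ASO, where 47.1% of all genes were, from 0.33 for Usp18 to 1.66 for Ifi27l2a, with a median of 0.74 against -0.01 over the other 13453 genes. All 7 were at least 1.2-fold higher, where 10.3% of all genes were. Ifi27l2a and Oas1a were at least 2-fold higher, where 0.178% of all genes were. Oas1a was below 2-fold under 3 alternatives, at 0.98 with no background subtraction, 0.93 with spot means and 0.89 with 100 added before log2. Over all 9 genes, dim probes included, the median was 0.68.

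The comparison of ASO with ACO set the oil against water in peptide-injected mice. Of the 7 measured genes, 6 were higher on ASO, where 47.1% of all genes were, with a median of 0.55 against -0.01 over the other 13564 genes. Ifi27l2a, Oas1a, Ifit3 and Isg15 were at least 1.2-fold higher, 4 of 7, where 10.1% of all genes were, and no member was at least 2-fold higher, where 0.184% of all genes were. Over all 9 genes, dim probes included, the median was 0.27. Spike-in controls differed in the same direction by a median of 0.48. The differences of Ifi27l2a, Oas1a, Ifit3 and Isg15 were above that median, those of Ifitm3, Usp18 and Bst2 were below it, and the part of labelling in the result was not tested.

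The comparison of ACO with NCO set the injected peptide against water, within the limit that the route of the water is not given. All 7 measured genes were higher on ACO, where 51.8% of all genes were, with a median of 0.32 against 0.00 over the other 13310 genes. Ifi27l2a, Bst2, Ifitm3, Oas1a and Ifit3 were at least 1.2-fold higher, 5 of 7, where 2.76% of all genes were. The count was 3 with spot means and also 3 with 100 added before log2. No member was at least 2-fold higher, where 0.0375% of all genes were. The 3 comparisons share arrays, so the differences of a gene in them are not separate evidence.

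**Figure D4:**
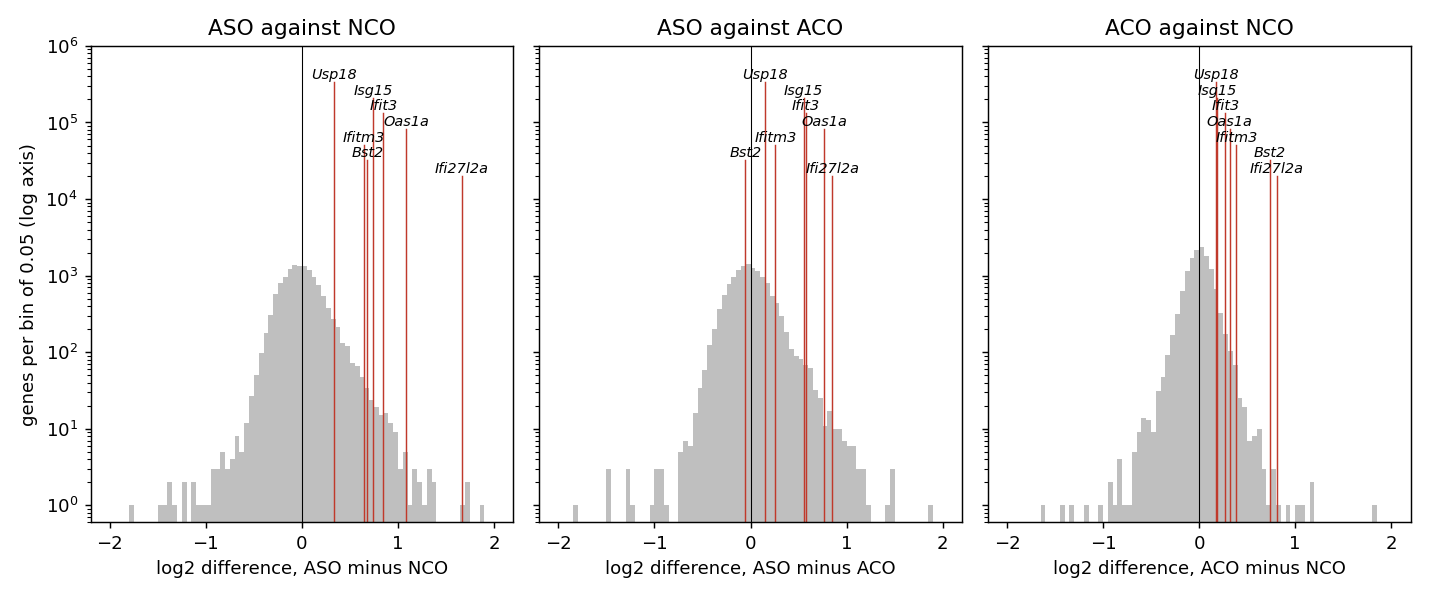
Numbers of genes (log axis) by log2 difference in bins of 0.05 for the 13193 genes measured on all 3 arrays, in panels for ASO minus NCO, ASO minus ACO and ACO minus NCO, with red lines at the 7 measured members (line height has no meaning). The members lie between 0.33 and 1.66 in the first panel, -0.05 and 0.85 in the second and 0.18 and 0.81 in the third.

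Markers of other cell types were read beside the members. All 10 markers of microglia, resident immune cells of the brain, were measured. Their median difference was 0.25 for ASO against NCO with 8 of 10 higher, 0.33 for ASO against ACO with 9 of 10 higher and 0.00 for ACO against NCO with 5 of 10 higher. Of all genes, 47.1%, 47.1% and 51.8% were higher in these 3 comparisons. In the last comparison the microglial markers went both ways, from -1.17 for Itgam to 0.37 for P2ry12, with Aif1 at 0.31. Their summed signal was 36420 on ASO, 29250 on ACO and 33570 on NCO, of which Itgam made up 4790 on ASO, 3760 on ACO and 8521 on NCO, so that gene alone sets the order of ACO and NCO. Of 9 astrocyte markers, 3 passed 1.2-fold upwards for ASO minus ACO, where 10.1% of all genes did. For ASO minus NCO 3 of 9 passed it upwards, where 10.3% of all genes did. The median of the astrocyte markers was 0.12 in both and 0.01 for ACO against NCO. Gfap, the filament protein of astrocytes, was at 0.84 in both, with its 3 probes between 0.62 and 1.1 for ASO against NCO. The 10 markers of choroid plexus epithelium, a neighbouring tissue, had a median of 0.24 for ASO against NCO with 9 of 10 higher, -0.19 for ASO against ACO with 1 of 10 higher and 0.50 for ACO against NCO with 9 of 10 higher. Of 12 blood and leukocyte markers on the array, 8 were measured, with a median of 0.15 for ASO minus NCO, 0.28 for ASO minus ACO and -0.01 for ACO minus NCO. Among genes listed as leukocyte markers, S100a9, Cd3e and Siglech were well above background on every array, and S100a8 and Ccr2 on none. Siglech was far brighter than Cd3e, at 6059 against 148.6 on ASO, and which cells gave its signal was not tested. S100a9, a neutrophil protein, was at -0.01 for ASO minus NCO, -0.68 for ASO minus ACO and 0.67 for ACO minus NCO. The part of these cells in the members' differences was not tested.

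Other genes of the interferon pathway were read from lists of 159 genes, of which 151 were on the array, and their medians stand beside an all-gene median of -0.01, -0.01 and 0.00 in the 3 comparisons. Among the ligands, 14 of 18 were on the array and 13 of these were above background on no array, including Ifnb1 and Ifng. Ifnl3, a type III interferon, was above background on ACO alone, yet its signal was 82.3 on ASO, 61.2 on ACO and 71.4 on NCO, so it gives no order. The other ligands were not detectable above the background of these arrays.

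Receptors and signal transducers lay close to the median of all genes. Of 12 genes, 10 were measured, with a median of -0.03 for ASO minus NCO, -0.14 for ASO minus ACO and 0.04 for ACO minus NCO. For ASO against NCO the highest were the interferon-γ receptor chain Ifngr1 at 0.48, Irf9 at 0.16 and Ifnar1 at 0.16, and the lowest were Ifngr2 at -0.29, Stat2 at -0.25 and Jak2 at -0.18. Ifngr1 alone in this list passed 1.2-fold upwards for ASO against NCO, and Ifngr2 alone passed it downwards.

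Among nucleic acid sensors and their adaptors, 17 of 23 were measured for ASO against NCO. Their median was 0.07, with 4 at least 1.2-fold higher, where 10.3% of all genes were, and 1 lower by that size. The highest were Mavs, the mitochondrial adaptor of RNA sensors, at 0.51, the RNA sensor Ddx58 (RIG-I) at 0.32 and the DNA-degrading exonuclease Trex1 at 0.32. The lowest were the kinase gene Tbk1 at -0.43, Adar at -0.07 and Rnaseh2c at -0.02, and a second Adar probe stood at 0.56. For ASO against ACO the median was 0.10 over 19 genes, and for ACO against NCO it was 0.01 over 17.

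Of the interferon regulatory factors other than Irf7, 5 of 6 were measured for ASO against NCO, of which 2 were at least 1.2-fold higher, where 10.3% of all genes were. Irf8, a factor of microglia and other myeloid cells, was at 0.63, with a signal of 550.9 on ASO, 383.9 on ACO and 337.3 on NCO. Irf2, which can repress interferon-stimulated genes, was at 0.36, Irf1 at 0.21 and Irf5 at -0.01. The medians were 0.23 for ASO against ACO and 0.08 for ACO against NCO, over 4 genes each.

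Of the enzymes that attach Isg15, 5 of 7 listed genes were on the array and 4 were measured. Uba7, the activating enzyme, had a signal of 370.6 on ASO, 244.4 on ACO and 220.3 on NCO, and differences of 0.64 for ASO minus NCO, 0.51 for ASO minus ACO and 0.12 for ACO minus NCO. Ube2l6, the conjugating enzyme, had 448.8 on ASO, 345 on ACO and 316 on NCO, and differences of 0.45, 0.34 and 0.11 in the same order of comparisons. Both genes thus had most of their distance between ASO and ACO, like Isg15. Trim25 was at 0.01 and Ube2e1 at -0.27 for ASO against NCO, so 2 of 4 measured genes of this list were at least 1.2-fold higher, where 10.3% of all genes were, and 1 was lower by that size. The ligase gene Herc6 was not well above background on any array, at 28.8 on ASO, 26.1 on ACO and 37.4 on NCO.

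Other antiviral effectors were measured in 45 of 81 cases for ASO against NCO. Their median was 0.20, with 38 of 45 higher, 17 at least 1.2-fold higher and 0 at least 1.2-fold lower, where 47.1% of all genes were higher and 10.3% at least 1.2-fold higher. Cxcl10, an interferon-induced chemokine, was the 1 gene of the list at least 2-fold higher, at 1.26, with a signal of 382.4 on ASO, 166.5 on ACO and 131 on NCO. Phf11d followed at 0.79 and Lgals3bp, a secreted glycoprotein, at 0.75, with a second Lgals3bp probe at 0.79. The lowest were the scramblase gene Plscr1 at -0.23, Znfx1 at -0.19 and Plscr2 at -0.17. For ASO against ACO 37 of 50 were higher with a median of 0.14, and 13 were at least 1.2-fold higher, where 10.1% of all genes were. For ACO against NCO 35 of 44 were higher with a median of 0.07, and 6 were at least 1.2-fold higher, where 2.76% of all genes were.

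For ASO against NCO, the measured paralogs had smaller differences than the members of their families. The members were chosen with these differences known, so the contrast is a description only. Ifi27 was at 0.19 beside Ifi27l2a at 1.66, and Ifitm1 at 0.34, Ifitm2 at 0.25, Ifitm7 at 0.04 and Ifitm10 at 0.40 stood beside Ifitm3 at 0.65. Among the oligoadenylate synthetase genes, Oasl2 was at 0.50, Oas2 at 0.29 and Oas1b at 0.13, beside Oas1a at 1.08. In the Ifit family Ifit3b was at 0.20, Ifit2 at -0.01 and Ifit1bl2 at -0.11, beside Ifit3 at 0.85. For ASO against ACO this did not hold in the Ifitm family, where Ifitm1 at 0.26 and Ifitm10 at 0.30 were level with or above Ifitm3 at 0.26. For dim genes of the list that passed the background on ASO and not on NCO, ratios were taken with the constant added. Phf11b was 1.86-fold, Mx2 1.81-fold, Trim30d 1.52-fold, Oasl1 1.51-fold and Mx1, which traps viral nucleoproteins, 1.32-fold higher on ASO. These are among the larger ratios of such genes, and Trim30a at 1.49-fold and Oas1f at 1.45-fold lay above Mx1. Oas1c had a ratio of 1.01-fold. Cd274, which also passed on ASO alone of the pair, had 45.6 on ASO and 49.1 on NCO and so was not higher on ASO. The ratios use the measured dim signal and leave out spot error, so they are not lower limits.

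Negative regulators were measured in 12 of 14 cases for ASO against NCO, with a median of 0.19, 5 at least 1.2-fold higher, where 10.3% of all genes were, and 0 lower by that size. The highest were the phosphatase gene Ptpn6 at 0.54, Tnfaip3, an inhibitor of NF-kB signalling, at 0.35 and Trex1 at 0.32. Pias2 at -0.23, Ptpn2 at -0.21 and Ptpn11 at -0.14 were the lowest. Socs1 and Socs3, which block the Jak kinases, had signals of 85.2 and 173.4 on ASO, 82.1 and 158.9 on ACO and 75.7 and 132 on NCO.

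**Figure D5:**
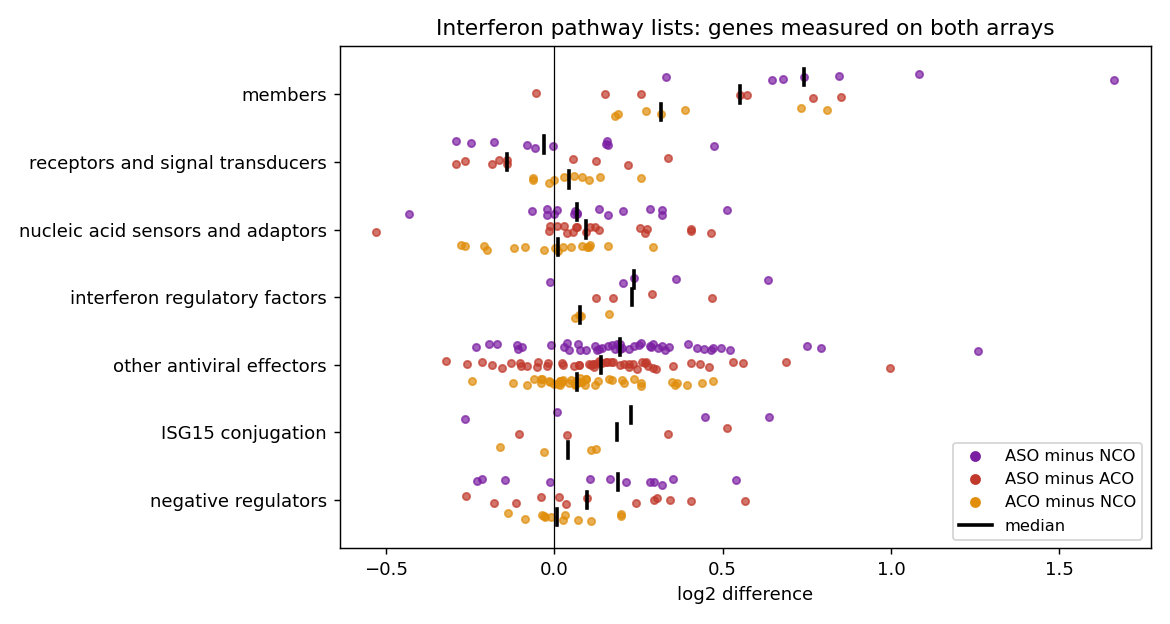
Log2 differences of the measured members and of 6 pathway lists for ASO minus NCO, ASO minus ACO and ACO minus NCO, 1 point per gene measured on both arrays and a black bar at each median. The members' medians are 0.74, 0.55 and 0.32, and those of the receptors and signal transducers are -0.03, -0.14 and 0.04.

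Among 13186 other genes measured on all 3 arrays, those whose ASO minus NCO and ACO minus NCO differences lay closest to the members' medians were named by Euclidean distance over these 2 values. Arhgap45, a GTPase-activating protein of blood-derived cells, came first at a distance of 0.0335, with 0.71 for ASO minus NCO, 0.40 for ASO minus ACO and 0.31 for ACO minus NCO. Next were the chemokine gene Ccl12 at 0.0555 and Slc11a1, a metal transporter of macrophage phagosomes, at 0.0558. Then followed Gm8054, Aif1, the calcium-binding protein known as IBA1 and one of the microglial markers above, Nrap, Krtap5-5, Emid1, S100a11 and Gm4978, up to a distance of 0.108. With 3 arrays, a like pattern rests on 2 numbers per gene.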

How the data were processed

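Hippocampal RNA pools of 3 groups were measured on 3 one-colour mouse arrays. Foreground and background intensities were deposited without normalization, from a scan at 532 nm quantified with GenePix Pro 6.1.0.4, per the file headers. Each spot's signal to noise score and its percent of pixels at saturation were also taken from the deposited files. The submitters' processing notes name Agilent Feature Extraction. The authors' deposited table of 475 processed intensities followed the foreground medians linearly over the 448 probes compared, and the reason for its slopes is not given in the sources used here.

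Foreground medians were corrected with limma 3.58.1 in R 4.3.3 (normexp, offset 0), control spots were left out, arrays were scaled to a common 75th percentile (factors 0.991 on ASO, 0.949 on ACO and 1.06 on NCO), and 50 was added before log2, which draws dim probes towards 0. A probe entered a comparison if its signal to noise score was at least 2.6 on both arrays, with no mark as a bad spot and under 50% saturated pixels on at least 1 array. A gene was shown by its brightest entered probe. Names came from RefSeq genes (GRCm38.p6), which matched 26575 of 39429 probes by accession, 2602 by symbol and 490 by synonym. Another 1805 kept the file's name. Later steps used Python 3.11.15, pandas 2.3.3 and numpy 2.4.6 and were tested on simulated data. With 1 array per group there was no test, so genes were counted at 1.2-fold and 2-fold. The members and lists were chosen with earlier results of these data known. Named genes were the 9 members, the 3 highest and 3 lowest of each list for ASO against NCO, measured paralogs, genes at least 2-fold apart and the 10 nearest in pattern. Ifit3b, Irf8, Socs1 and Socs3 signals and the dim genes with ratios were chosen after their values were seen. Promoter sequences were not analysed here, and a few genes that the rule names are not reported here. Alternatives covered background, scaling, spot summary, the constant, filters, probes, names and array position.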

Additional observations from a re-analysis of the deposited data

How the results depend on the processing

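No paired analysis was possible because each group had 1 array. Of 262 single-gene values under 13 alternatives, 242 moved by less than the median spot SD, 20 moved by more and 0 of the differences past 1.2-fold changed sign, while Bst2 for ASO against ACO, at -0.05, was 0.07 after correction by the surrounding spots. For ACO against NCO the members' median ranged from 0.25 to 0.39, and the count at least 1.2-fold higher was 3 with spot means and 3 with 100 added before log2, against 5. For ASO against ACO the median ranged from 0.27 to 0.58, the lowest of 0.27 coming with no filter on dim probes, which brings in Ifit1 and Irf7. For ASO against NCO the median ranged from 0.67 to 0.79 and the count from 6 to 8. Oas1a for ASO against NCO was 1.28 with 16 added and 0.89 with 100 added, against 1.08. The median of all genes stayed within 0.04 of 0 under every scaling tried. Signal over background limits Ifit1, Irf7 and the second probes of Oas1a and Isg15, and 1 array per group limits every comparison.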

Other observations

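Genes next to the members on the chromosome, by the gene order of RefSeq assembly GRCm38.p6, were read as a description. Of 18 neighbours, 1 on each side, 10 were measured for ASO against NCO, and 2 were at least 1.2-fold higher on ASO, where 10.3% of all genes were. Ifitm1 beside Ifitm3 was at 0.34 and Tuba8 beside Usp18 at 0.40. Ddx24 and Ifi27 beside Ifi27l2a were at 0.06 and 0.19, Mvb12a beside Bst2 was at 0.06, Agrn beside Isg15 at -0.13 and Phrf1 beside Irf7 at -0.11.

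In the authors' deposited table, which holds 4 of the 11 member probes, Ifi27l2a had 896.3 on ASO, 501.1 on ACO and 253.8 on NCO, and Oas1a had 241, 123.1 and 80.8 on the same arrays. Bst2 had 437.4 on ASO, 485.5 on ACO and 262.8 on NCO in the authors' deposited table, again highest on ACO.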
